A study of Mus musculus domesticus and Mus musculus domesticus x Mus musculus castaneus and Mus musculus castaneus with 10 samples.

Results

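The translation initiation factor genes were taken as the protein-coding genes whose symbol is Eif followed by a number from 1 to 6. The kinases named Eif2ak, the eIF4E-binding proteins Eif4ebp, the transporter Eif4enif1 and predicted genes were left out. This gave 42 genes of the 26808 in the deposited count table: 3 of eIF2, 5 of eIF2B, 14 of eIF3, 11 of the eIF4 group and 9 other factors. The annotation holds 47 genes that meet the rule, and Eif1a, Eif2s3y, Eif4e, Eif5 and Eif5b were not analysed here. The absence of Eif4e means that the main cap-binding protein is missing from every value given for the eIF4 group.

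The samples were 2 RNA-seq libraries of undifferentiated pluripotent stem cells of the CAST/EiJ strain (hereafter CAST), which stands for M. m. castaneus in a study of expression divergence of translation genes between mouse subspecies. The cells were induced pluripotent stem cells, obtained by retroviral transfer of Oct4, Sox2 and Klf4 into embryonic fibroblasts of this strain, and both libraries share this origin. They were grown on irradiated fibroblast feeders with LIF and feeders were depleted before RNA extraction. The series also lists 4 libraries of 129 stem cells and 4 of 129CAS stem cells, not analysed here, so levels are described in 1 group, no comparison between strains or cell types is given and no test was run.

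Initiation brings the ribosome, the initiator tRNA and an mRNA together. eIF2 carries the initiator tRNA as a complex with GTP, eIF2B exchanges the nucleotide on eIF2 and is the step that stress kinases block, eIF3 is the large scaffold on the small ribosomal subunit, and the eIF4 factors bind the cap and unwind the mRNA. Pluripotent stem cells are known for a low rate of protein synthesis relative to their differentiated progeny, and the activity of eIF2 and of the cap-binding complex is known to be regulated in them.

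The libraries held 14460393 counts in replicate 1 and 13728098 in replicate 2. At this depth 3 counts, taken as the limit of detection, equal 0.207 and 0.219 counts per 1000000 counts of the library (CPM). All 12 of the 12 pluripotency markers with a row were above the limit, and they summed to 5973 CPM in replicate 1 and 4654 in replicate 2. Zfp42 had 573 and 493 CPM, whereas Pou5f1, at 547 and 731 CPM, went against the sum. Pou5f1 encodes Oct4, and reads from the Oct4, Sox2 and Klf4 vectors were not separated from those of the genes. The list was fixed at 14 genes, and Nanog and Dppa5a were not analysed here. Of 12 neuron markers, Syt1, Slc17a6 and Chat had no count in either library, and the list summed to 225 and 176 CPM, of which Stmn2 gave 124 and 117. The 12 fibroblast markers summed to 3488 CPM in replicate 1 and 1387 CPM in replicate 2, with none at 0. Of these sums, Col1a1 gave 1726 and 777 CPM and Col1a2 gave 825 and 273. The libraries thus differed in most transcripts of this list, while Dcn, at 3.25 and 3.21 CPM, and Pdgfrb, at 6.15 and 6.63, were similar.

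Some of these genes share sequence with other annotated genes, and a read that lies wholly within identical sequence cannot be assigned. Of the 42 genes, 22 had at least 1 stretch of 75 bases of their longest protein-coding transcript that also occurs in an annotated transcript of another gene, and in 7 genes this held for over 20% of the stretches. Eif1ad, Eif2b4, Eif2d, Eif3d, Eif4e3 and Eif6 shared stretches only with genes that overlap them at the same locus, the others also or only with genes elsewhere. The share over all genes was not computed. The DEAD-box helicases Eif4a1, Eif4a2 and Eif4a3 show how close the paralogs are. Their sequences are given because the family's shares below rest on telling them apart. The 60 coding bases around the codons of the DEAD motif, which names these helicases and is written in capitals, were read from GENCODE M21 transcripts of GRCm38 in the sense of the mRNA.
Eif4a1: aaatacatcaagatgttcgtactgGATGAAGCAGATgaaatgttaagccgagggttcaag
Eif4a2: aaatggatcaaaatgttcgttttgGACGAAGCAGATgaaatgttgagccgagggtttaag
Eif4a3: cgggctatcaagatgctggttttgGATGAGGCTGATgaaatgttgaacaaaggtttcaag
The Eif4a1 stretch lies in exon 6 on the minus strand, at chr11:69668689-69668748, and the Eif4a2 stretch in exon 6 on the plus strand, at chr16:23110239-23110298. The Eif4a3 stretch runs over the junction of exons 6 and 7 on the minus strand, with ends at chr11:119294026-119294376. Eif4a1 and Eif4a2 were identical at 52 of the 60 bases, and each was identical to Eif4a3 at 43. Over the aligned coding sequence the identity was 78.6% between Eif4a1 and Eif4a2, 67.9% between Eif4a1 and Eif4a3 and 66.6% between Eif4a2 and Eif4a3. Bases in gaps, 148, 41 and 169 in these pairs, were left out. The coding sequence used for Eif4a2 had 1086 bases, against 1218 for Eif4a1 and 1233 for Eif4a3. None of the 3 genes shared a stretch of 75 bases with another of them. The processed pseudogene Eif4a-ps4 shared 62.9% of the stretches of Eif4a1, with a longest identical run of 684 bases.

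The 42 genes together held 1.65% ± 0.0250 of all counts (SD, n = 2). The share was 1.63% in replicate 1 (95% Wilson interval 1.62% to 1.64%) and 1.66% in replicate 2 (1.66% to 1.67%), and the intervals cover counting error only. The eIF4 group held 48.9% of these counts, eIF3 28.8%, the other factors 13.2%, eIF2B 4.89% and eIF2 4.23%. As a share of all counts, the eIF4 group had 0.805% in each library, and eIF3 had 0.455% in replicate 1 and 0.494% in replicate 2. The eIF2 genes had 0.0728% and 0.0664%, the eIF2B genes 0.0843% and 0.0767%, and the other factors 0.213% and 0.222%. The complexes thus had the same order in both libraries. As a ratio of replicate 2 to replicate 1, the share moved most for eIF2B (0.910), eIF2 (0.912) and eIF3 (1.09), against 1.04 for the other factors. In percentage points, the other factors moved more than eIF2 or eIF2B.

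Levels were compared between genes as CPM divided by the length in kilobases of the longest protein-coding transcript (CPM per kb). By this measure 26 of the 42 genes lay above the 90th percentile of the 13117 protein-coding genes with at least 10 counts, 35 lay above the 50th, and the median member was at the 95.9th. The median level of the eIF3 genes was 187 ± 13.1 CPM per kb (SD, n = 2) and that of the eIF4 group 170.3 ± 10.1. eIF3 was the higher of this pair in each library, with 177 against 163 in replicate 1 and 196 against 177 in replicate 2, but the difference was about as large as the change of each group from library to library. eIF2 had a median of 81.4 ± 5.0, the other factors 45.0 ± 5.83 and eIF2B 39.6 ± 1.58. The last pair differed by less than the SD of the other factors, and its order turned when the mean length of the protein-coding transcripts was used in place of the longest, with 71.0 for eIF2B and 59.8 for the other factors.

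**Figure D1:**
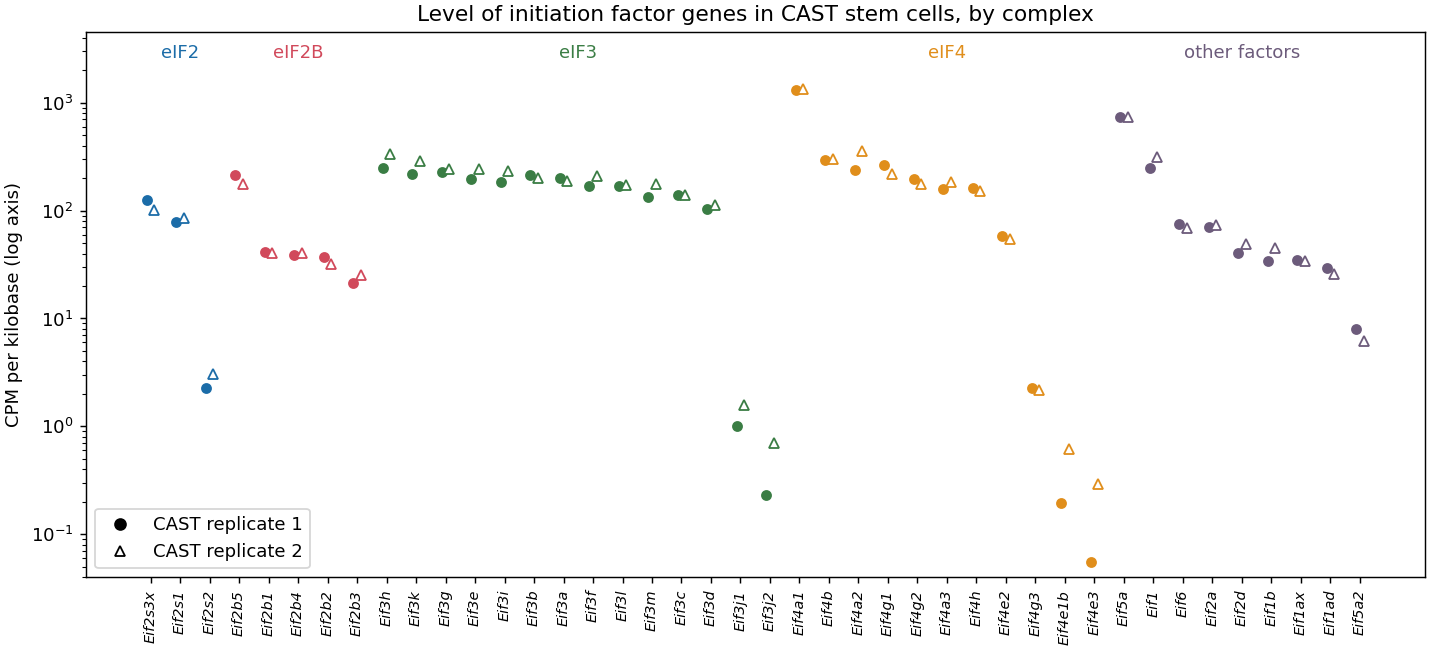
CPM per kb of the 42 genes on a log axis, grouped by complex, with a filled circle for replicate 1 and an open triangle for replicate 2. The 12 eIF3 subunits other than eIF3j lie between 103 and 333 CPM per kb, while Eif2s2, Eif3j1, Eif3j2, Eif4g3, Eif4e1b and Eif4e3 lie far below the rest of their groups in each library.

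The counts on the 3 genes of the eIF2 heterotrimer were uneven, and the level of Eif2s2 is uncertain, as set out below. Eif2s1, which encodes the alpha subunit that stress kinases phosphorylate, had 265 CPM in replicate 1 and 289 in replicate 2. Eif2s3x, the X-linked gene of the gamma subunit that binds GTP and the initiator tRNA, had 457 and 367 CPM. Eif2s2, the gene of the beta subunit (chr2:154871410-154892935), had 5.81 and 7.72 CPM, from 84 and 106 counts. Per kilobase, Eif2s1 was 34.1 and 28.0 times as high as Eif2s2, and Eif2s3x 54.9 and 33.1 times, whereas Eif2s3x was only 1.61 and 1.18 times as high as Eif2s1. The gap between Eif2s2 and its partners was therefore far beyond the difference between the libraries. Eif2s2 stood at the 31.6th percentile of protein-coding genes, against the 93.1st for Eif2s1 and the 95.4th for Eif2s3x.

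Part of the Eif2s2 transcript is repeated elsewhere in the genome. The processed pseudogene Gm9892, which was not analysed here, shared 22.4% of its stretches, with a longest identical run of 370 bases. The stretch below, coding bases 67 to 126 in exon 2 at chr2:154888250-154888309 on the minus strand, is identical in Gm9892 and is shown as an example of the shared sequence.
Eif2s2: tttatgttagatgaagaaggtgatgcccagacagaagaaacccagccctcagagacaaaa
The shared part was 35.7% for Eif2s3x, with the pseudogene Gm2223, and 3.24% for Eif2s1. Eif2s2 also overlaps the protein-coding gene a on the opposite strand, which had 3 and 0 counts. Copies of Eif2s2 in the CAST genome were not examined, and the part of multiple matches in its low count was not tested. The counted level of Eif2s2 is uncertain for this reason.

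Within eIF2B, the decameric exchange factor for eIF2, a single subunit stood out. Eif2b5, which encodes the catalytic epsilon subunit (chr16:20498817-20509323), had 543 and 455 CPM. The regulatory subunits were lower, with Eif2b1 (alpha) at 82.6 and 82.1 CPM and Eif2b2 (beta) at 59.2 and 51.1. Eif2b4 (delta) had 78.0 and 82.5 CPM, and Eif2b3 (gamma), which pairs with epsilon, had 80.4 and 95.9. Per kilobase, Eif2b5 was 5.64 and 4.91 times the median of the other 4 genes in the respective libraries. The other 4 lay within 1.92-fold of each other in replicate 1 and 1.60-fold in replicate 2. Eif2b5 shared no 75-base stretch with another annotated gene and overlapped none, while Eif2b4 overlaps Snx17 on the opposite strand, which shared 6.66% of its stretches. Of the pair formed by Eif2b1 and Eif2b4, at 40.9 ± 0.167 and 39.6 ± 1.58 CPM per kb (SD, n = 2), neither can be placed above the other.

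The eIF3 subunits were close to each other in level. Leaving aside the loosely bound eIF3j, the 12 subunit genes ranged from 103 to 247 CPM per kb in replicate 1 and from 112 to 333 in replicate 2, a range of 2.41-fold and 2.97-fold. Their coefficient of variation was 22.9% and 29.0%, and that of the 4 eIF2B genes other than Eif2b5 was 25.7% and 21.4%. By the mean of both libraries the highest were Eif3h, at 247 and 333 CPM per kb, Eif3k, at 218 and 290.3, and Eif3g, at 226 and 243. Eif3h and Eif3k belong to the core of the complex, and Eif3g is an RNA-binding subunit outside it. By the same mean the lowest were Eif3m, another core subunit, at 135 and 176 CPM per kb, Eif3c, a core subunit with contacts to eIF1 and eIF5, at 141 and 141, and Eif3d, which can bind the cap of some mRNAs, at 103 and 112. By the longest transcript, Eif3d was the lowest in each library and Eif3h the highest in each, while the order of the subunits between them differed from library to library. The top rank depended on this length. With the mean length of the protein-coding transcripts, 1770.5 bases for Eif3b and 1295 for Eif3h, Eif3b would rank above Eif3h in each library. Eif3b, Eif3e, Eif3f, Eif3i and Eif3l lay between 170.2 and 243 CPM per kb. In CPM, without regard to length, Eif3a, the largest subunit and scaffold of the core, led with 1038 and 972.

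Eif3j1 and Eif3j2, a pair of genes for eIF3j, were the exception. Eif3j1 (chr2:122028546-122056598) had 79 and 117 counts, or 5.46 and 8.52 CPM, and Eif3j2 had 8 and 23 counts, or 0.553 and 1.68 CPM. Per kilobase Eif3a was 201 and 120.4 times as high as Eif3j1. The coding sequences of Eif3j1 and Eif3j2 were identical at all 783 aligned bases, with 6 further bases in gaps. Eif3j2 had 87.4% and Eif3j1 51.0% of its 75-base stretches in another gene, the largest and the third largest share of all members. Eif3j1 also overlaps Spg11 on the opposite strand, which shared 14.0% of its stretches. Reads wholly within the shared part cannot be assigned to either gene, so the level of both is uncertain.

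**Figure D2:**
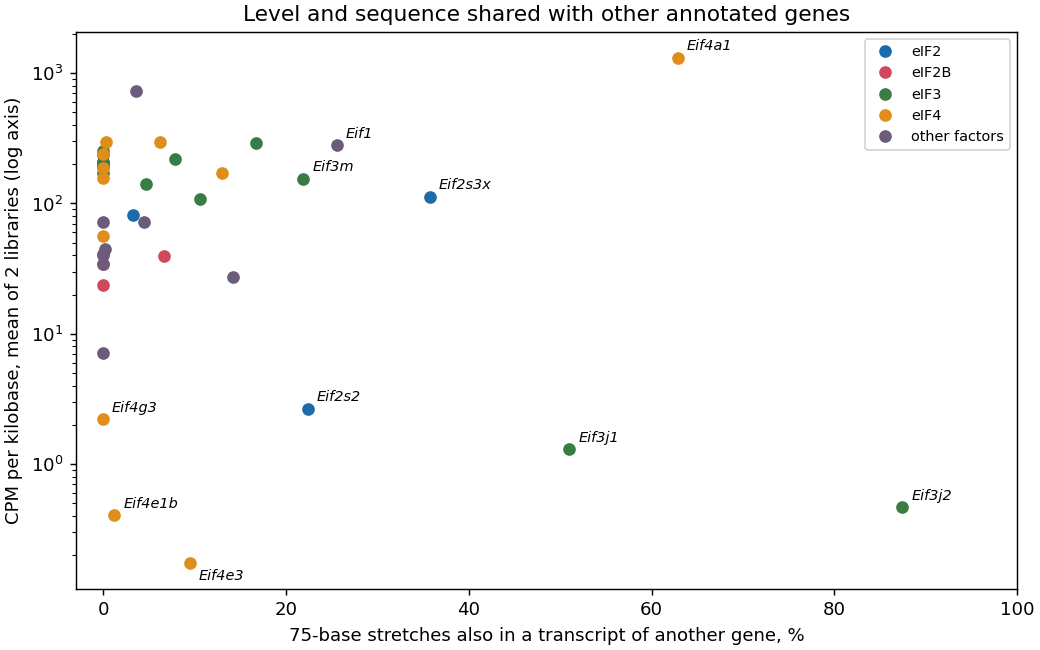
Mean CPM per kb of the 2 libraries (log axis) against the percentage of a gene's 75-base stretches that occur in an annotated transcript of another gene, 1 point per gene, coloured by group. Eif3j1 and Eif3j2 combine a high shared part with a low level, Eif4a1 has the highest level with 62.9% shared, and Eif4g3 is low with nothing shared.

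The eIF4 group held the most abundant and the least abundant members. Eif4a1, the main helicase of the cap-binding complex eIF4F (chr11:69666936-69672423), was the highest of the 42 genes, with 2311 CPM in replicate 1 and 2371 in replicate 2, or 1303 and 1337 CPM per kb. Its paralog Eif4a2 had 639 and 966 CPM, and Eif4a3, which acts in the exon junction complex rather than in initiation, had 241 and 277. The level of Eif4a1 is uncertain in that most of its stretches also occur in Eif4a-ps4, which was not analysed here. The scaffold Eif4g1 had 1485 and 1232 CPM, and Eif4g2, which lacks the eIF4E-binding part and serves cap-independent initiation, had 1574 and 1419. Eif4g3 had 18.3 and 17.8 CPM. The helicase cofactors Eif4b and Eif4h had 1131 and 1164, and 445 and 416 CPM, and per kilobase Eif4b was 1.80 and 1.98 times as high as Eif4h.

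Of the cap-binding proteins analysed, Eif4e2, which encodes the repressor 4EHP, was the main gene, with 201 and 189.7 CPM. Eif4e1b, known from oocytes, had 6 and 18 counts, or 0.415 and 1.31 CPM. Eif4e3 had 2 and 10 counts, or 0.138 and 0.728 CPM, and was at or below the limit of detection in replicate 1. It overlaps Gm20696 on the same strand, which shared 9.50% of its stretches.

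The share of each gene in its paralog family was computed from counts per kb. Eif4a1 made up 76.7% and 71.2% of the Eif4a family, Eif4a2 13.9% and 19.0%, and Eif4a3 9.41% and 9.77%. In the Eif4g family, Eif4g1 made up 56.9% and 54.9% and Eif4g2 42.6% and 44.6%, while Eif4g3 made up 0.487% and 0.551%. The order of Eif4g1 and Eif4g2 depended on length, as Eif4g2 has the longer annotated transcript and had more counts than Eif4g1 in each library. Eif4e2 made up 99.6% and 98.4% of the 3 Eif4e paralogs analysed, a share that leaves Eif4e itself out. Eif5a, the factor that carries hypusine and relieves stalled elongation, made up 98.9% and 99.2% of its pair with Eif5a2. Eif1, which guards the choice of the start codon, made up 87.7% and 87.3% of its pair with Eif1b. In each of these families the leading gene was the same in the 2 libraries.

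**Figure D3:**
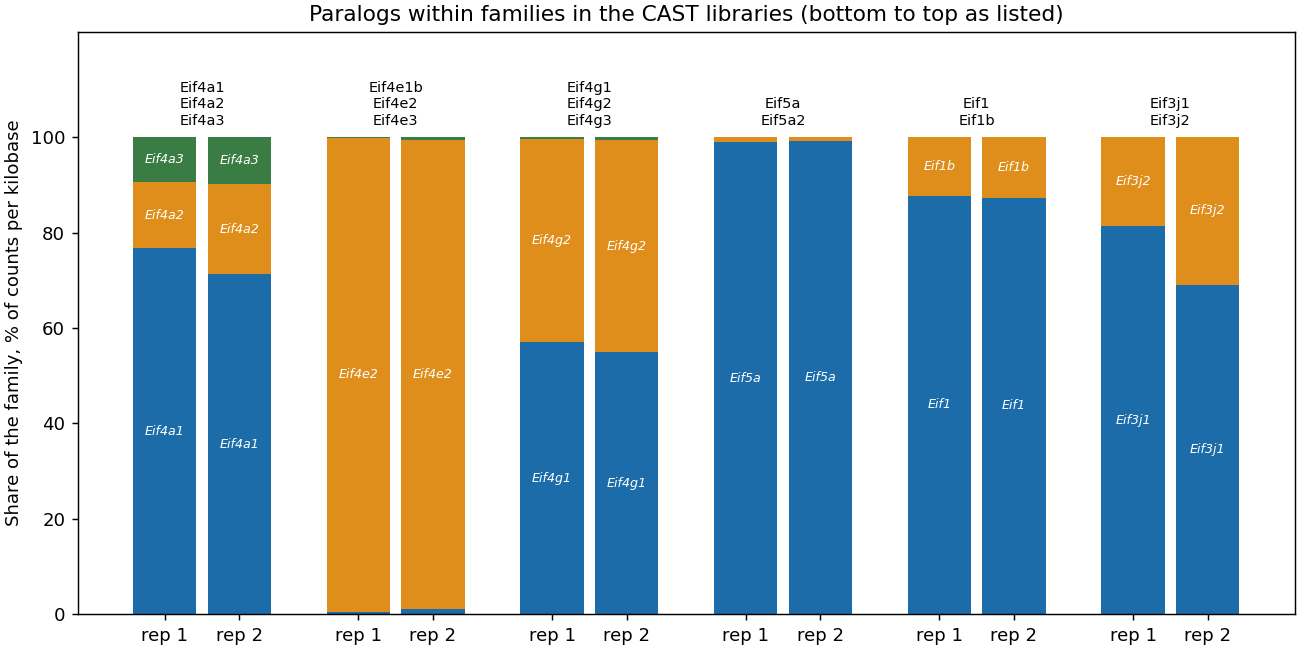
Share of each paralog in the summed counts per kb of its family, in percent, with 1 stacked bar for each CAST library. The leading gene is the same in the 2 bars of each family, and the largest shift is within Eif3j1 and Eif3j2, where Eif3j1 has 81.3% in replicate 1 and 69.1% in replicate 2.

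Among the remaining factors, Eif5a had 1064 and 1050.2 CPM and Eif5a2 had 40.5 and 30.8, and per kilobase Eif5a was second only to Eif4a1 of all members. Eif1 had 325 and 415 CPM and Eif1b 35.5 and 47.1. Eif1ax, the X-linked gene of eIF1A, which helps scanning ribosomes, had 181 and 176 CPM. Eif2a and Eif2d encode alternative carriers of the initiator tRNA and lie outside the eIF2 heterotrimer. Eif2a had 161 and 168 CPM and Eif2d 135 and 163. Eif6, which keeps the ribosomal subunits apart, had 113 and 103 CPM, and Eif1ad, which overlaps Banf1 on the opposite strand, had 74.8 and 65.6. Without strand information, reads of Eif1ad and Banf1, at 2970 and 3079 counts, cannot be told apart where they overlap. This also holds for Eif2a with Serp1, Eif2b4 with Snx17, Eif2d with Rassf5, Eif3j1 with Spg11, Eif3m with Ccdc73, Eif4a2 with Rfc4 and Eif2s2 with a.

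The difference between the libraries shows how far these levels lay apart in 2 libraries, which does not measure their error. It was expressed as the log2 ratio of replicate 1 to replicate 2 after TMM scaling (edgeR's correction of library size for composition), with a pseudocount of 0.5 CPM, and all 42 genes had the minimum of 10 counts. The median over the members was -0.13, against 0.00 over all 13824 genes, and -0.022 over the 20 members that share no 75-base stretch. Of the 42 members, 30 were higher in replicate 2 (71.4%), against 49.6% of all genes. At least 1.5-fold apart were 5 members (11.9%), against 24.3% of all genes, and all 5 were higher in replicate 2, the direction of 10.9% of all genes. These 5 were Eif3j2, Eif4e1b, Eif4e3, Eif4a2 and Eif3j1. Apart from Eif4a2 they had between 2 and 117 counts in a library. With a pseudocount of 2 CPM 1 of the 5 was left, and the share of all genes was 15.3%. Of the 29 members whose mean reached 100 CPM, Eif4a2 alone was 1.5-fold apart (3.45%), against 238 of 2545 other genes at this level (9.35%).

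Eif4a2 was the abundant gene with the largest difference, 639 CPM in replicate 1 and 966 in replicate 2. Its log2 ratio was -0.65 (95% counting interval -0.69 to -0.62), while Eif4a1 had -0.10 and Eif4a3 -0.26. The gene Rfc4, which overlaps Eif4a2 on the opposite strand, had 815 and 721 counts, against 9243 and 13259 for Eif4a2. Both libraries belong to 1 group, so the interval covers counting error and says nothing of a condition. The opposite end was held by Eif5a2, at 0.33, Eif2s3x, at 0.26, and Eif4g1, at 0.21.

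**Figure D4:**
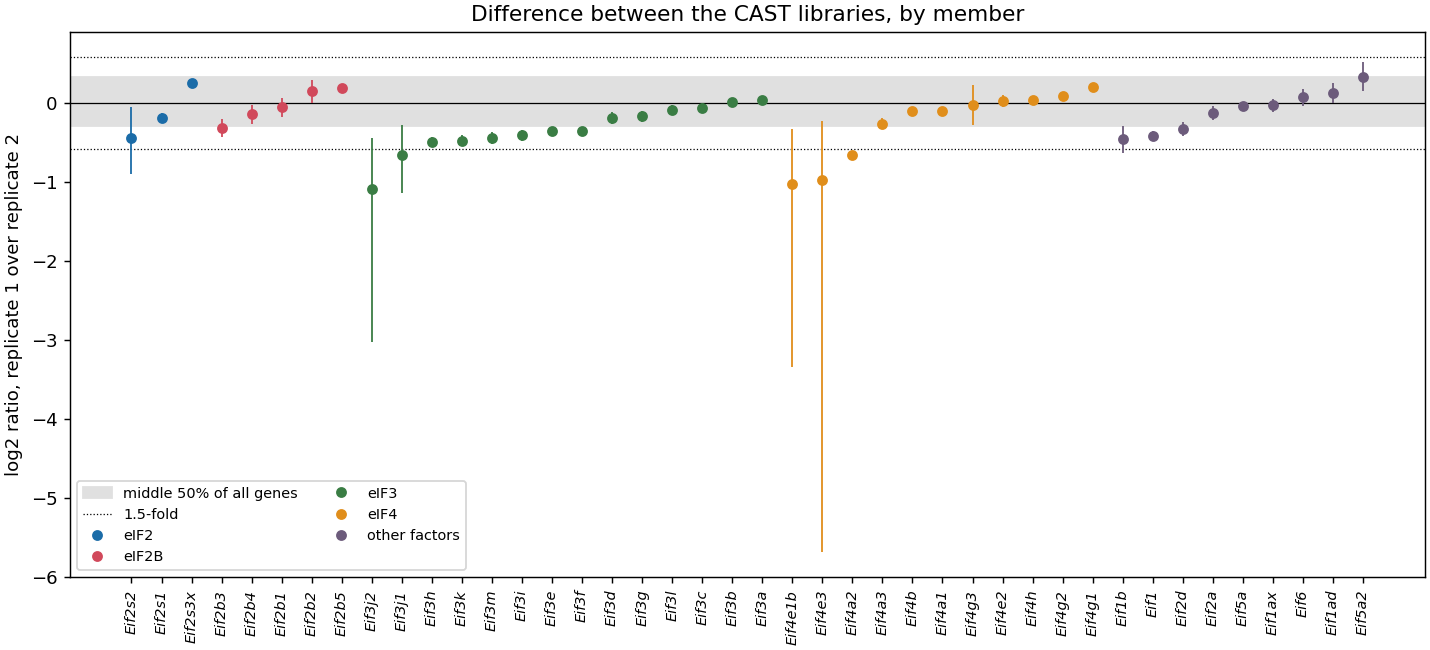
log2 ratio of replicate 1 to replicate 2 for each member, with its 95% counting interval as a vertical line, grouped by complex. The grey band is the middle 50% of all genes, from -0.29 to 0.33, dotted lines mark 1.5-fold, and 5 genes, all of eIF3 and eIF4, lie below the lower line.

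The eIF3 genes had a median log2 ratio of -0.35, with 12 of 14 higher in replicate 2. The summed share of their counts was 1.09 times as high there. The subunits did not move alike. Eif3a, Eif3b and Eif3c, the largest, had ratios of 0.04, 0.02 and -0.06. The other 9 subunits besides eIF3j ranged from -0.49 for Eif3h to -0.09 for Eif3l. The median was -0.18 for eIF2, -0.05 for eIF2B, -0.10 for the eIF4 group and -0.04 for the other factors. When scaled to library totals, the medians of eIF2B and the other factors changed sign, to 0.0083 and 0.018. The median of all genes moved from 0.0044 to 0.060 in the same step, so both groups stayed below it. Without the members that share a 75-base stretch, the medians of eIF2B and the eIF4 group changed sign, to 0.050 and 0.038, and that of eIF3 was -0.16.

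The log2 ratio also went with transcript length. The 15 members shorter than 2 kb had a median log2 ratio of -0.26 with 13 higher in replicate 2, and the 27 longer members had a median of -0.06 with 17 higher in replicate 2. Of other protein-coding genes, the 3185 shorter than 2 kb had a median of -0.19 with 68.7% higher in replicate 2, and the 9890 longer ones had a median of 0.08 with 42.5% higher in replicate 2. The shorter class was thus lower in ratio among members and other genes alike, while the medians of the longer classes lay on opposite sides of 0. Spearman's rho between ratio and length was 0.43 over the 42 members and 0.32 over 13075 other protein-coding genes. All these points come from the same 2 libraries, and genes are not independent replicates. Compared with the median of other genes in the same length class, 29 of the 42 members were lower in ratio and 13 higher, with 2 of 3 lower for eIF2, 3 of 5 for eIF2B, 11 of 14 for eIF3, 8 of 11 for the eIF4 group and 5 of 9 for the other factors. The median distance was -0.24 for eIF2, -0.21 for eIF3, -0.14 for the eIF4 group and -0.07 for the other factors, and was 0.00 for eIF2B.

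**Figure D5:**
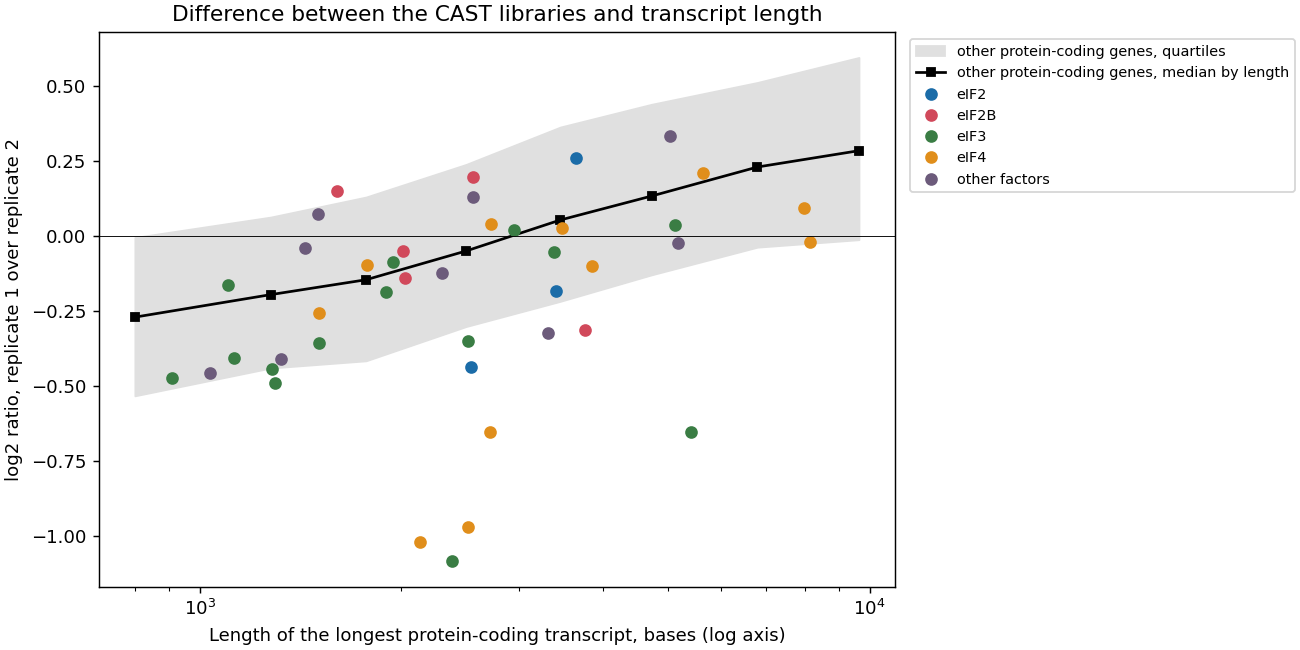
log2 ratio of replicate 1 to replicate 2 against transcript length on a log axis, with members as coloured points and other protein-coding genes as the median (squares) and quartiles (grey band) of 8 length classes. The median of other genes goes from -0.27 in the shortest class to 0.28 in the longest, and the members under 2 kb lie mostly below 0.

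Marker transcripts differed between the libraries as well. The fibroblast markers had a median log2 ratio of 1.20, with 10 of 12 higher in replicate 1, and the neuron markers 0.23, with 6 of the 8 that had at least 10 counts higher in replicate 1. The pluripotency markers had 0.28, with 8 of 12 higher in replicate 1, while Pou5f1 (-0.48) was among the 4 higher in replicate 2. Their part in the differences of the initiation factor genes was not tested. In bulk RNA, fewer cells of a type and less RNA per cell cannot be told apart. The labels give each library its own batch entry, so batch and replicate cannot be told apart either.

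Regulators of the pathway, which the rule left out, were measured beside the members. Of 27 regulators and helpers of initiation, 26 had a row and 25 had at least 10 counts, and Pabpc4 was not analysed here. The eIF4E-binding proteins, which block cap-dependent initiation when dephosphorylated, were led by Eif4ebp1, with 539.6 and 546 CPM, then Eif4ebp2, with 229 and 155, while Eif4ebp3 had 1 and 6 counts. The 4 kinases of eIF2 alpha were lower, with Eif2ak1 (HRI) at 46.5 and 37.1 CPM, Eif2ak2 (PKR) at 21.2 and 13.1, Eif2ak3 (PERK) at 40.2 and 29.9, and Eif2ak4 (GCN2) at 45.4 and 46.3. Ppp1r15b, the constitutive partner of the phosphatase that reverses their action, had 285 and 162 CPM, and its inducible counterpart Ppp1r15a had 49.2 and 36.4. Pabpc1, the poly(A)-binding protein that meets eIF4G, had 2665 and 2717 CPM. Per kilobase, Eif4ebp1 had 270.2 and 273 CPM per kb, close to Eif4g1 at 263 and 219 and above Eif4e2 at 57.9 and 54.6.

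Between the libraries, 12 of the 25 regulators were higher in replicate 1 and 13 in replicate 2, with a median log2 ratio of -0.08. At least 1.5-fold higher in replicate 1 were Ppp1r15b (0.75), Rptor (0.63), a subunit of the mTOR complex, and Eif2ak2 (0.62), 3 of 25 where 13.4% of all genes were. Only Paip2 (-0.62), an inhibitor of the poly(A)-binding protein, was 1.5-fold higher in replicate 2, where 10.9% of all genes were.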

How the data were processed

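RNA-seq counts of 2 CAST libraries were used. The authors deposited counts of reads per gene without normalization, listed by Ensembl identifier. The submitters' processing notes name TopHat2 2.1.1, SAMtools, HTSeq and GRCm38, whereas the paper's methods name STAR, the CAST/EiJ genome and removal of reads with more than 1 locus, so that the steps behind these counts are uncertain. Reads lost because CAST differs from the reference would lower counts. The strand setting is not given in the sources used here. A further 7 columns match no listed sample and were not used.

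All 26808 identifiers had a symbol in GENCODE M21 (GRCm38), which gave positions, transcript lengths and sequences. The lengths are those of the reference strain. Levels are counts per 1000000 counts (CPM). Ratios used TMM (edgeR 4.0.16, R 4.3.3), 0.5 CPM as the pseudocount and a minimum of 10 counts over both libraries. Counting intervals of ratios are exact binomial at 95%. The libraries are described as replicates of stem cell cultures, but whether each came from its own culture is not stated, so their spread may be technical. Shared stretches were exact matches of 75 bases on either strand. The ratio step was tested on simulated counts. Alternatives used DESeq2 1.42.0. Other steps ran in Python 3.11.15 with scipy 1.17.1, pandas 2.3.3 and numpy 2.4.6, and plots were drawn with matplotlib 3.10.9.

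The members and lists were chosen with earlier results of these data known. All members are accounted for, with values in both libraries for eIF2, eIF2B, eIF4 and paralog families, the 3 highest and 3 lowest eIF3 subunits and the 5 largest ratios. Other values were chosen after they were seen.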

Additional observations from a re-analysis of the deposited data

How the results depend on the processing

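No paired analysis was possible because the libraries analysed form 1 group. Leaving out members that share a 75-base stretch lowered the share of counts from 1.65% to 0.779%, and to 0.0724% for eIF2B, 0.315% for eIF3, 0.35% for the eIF4 group and 0.042% for the other factors, since fewer genes were counted, and no eIF2 gene was left. The same step, chosen after seeing the data for ratios, gave median log2 ratios of -0.022 over all members, 0.050 for eIF2B, -0.16 for eIF3 and 0.038 for the eIF4 group. With library totals the medians were 0.0083 for eIF2B and 0.018 for the other factors, while the median of all genes moved from 0.0044 to 0.060. This scaling shifts the ratios of nearly all genes alike, and both groups stayed below the median of all genes. The cause of the changes on leaving out members was not tested. With counts on protein-coding genes as the denominator the eIF4 share was 0.809%. The mean transcript length in place of the longest raised the median CPM per kb to 71.0 for eIF2B, 237 for eIF3, 214 for the eIF4 group and 59.8 for the other factors, which turned the order of eIF2B and the other factors. Without length, the family shares were 69% for Eif4a1, 47.2% for Eif4g1, 96.7% for Eif5a, 89.97% for Eif1 and 87.2% for Eif3j1. With a pseudocount of 2 CPM, 1 member was 1.5-fold apart instead of 5, and 15.3% of all genes instead of 24.3%. Without replicate 1, the mean moved by over 1.5 times for Eif3j2 (1.11 to 1.68 CPM), Eif4e1b (0.863 to 1.31) and Eif4e3 (0.433 to 0.728), and without replicate 2 for the same genes (to 0.553, 0.415 and 0.138). Depth limits statements on these 3 genes. With 2 libraries, leaving out either moves a mean by less than their SD whatever the values, so this alternative says nothing about stability.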
